A study of Mus musculus with 6 samples.

Results

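The genes described here are 36 markers of the somatic cells of the testis, chosen by symbol: 13 of Sertoli cells, 7 of Leydig cells, 5 of peritubular myoid cells, 5 of macrophages and 6 of endothelial cells. Of the 36 symbols, 35 matched a row among the 24495 gene symbols of the count table, and Rhox5 was not analysed here. The libraries come from cultured mouse spermatogonial stem cells, which sustain sperm production, derived from testes of the DBA2 strain at postnatal day 5 to 8. One group of 3 libraries received 2 uM EPZ5676 (pinometostat), an inhibitor of the histone H3 lysine 79 methyltransferase DOT1L, and the other group of 3 libraries received 0.2% ethanol, each for 2 weeks. All 6 libraries share the labelled strain, age range and cell type, and the groups differ in the agent. The labels name the cells as spermatogonial stem cells and state neither the purity of the cultures nor the cells that supported them. The question put to the markers is which of them are measurable in such a culture, and at what level in each group.

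In the testis, Sertoli cells surround the germ cells inside the tubule and supply the growth factors that maintain spermatogonial stem cells. Leydig cells, between the tubules, make androgen from cholesterol under the control of luteinizing hormone. Peritubular myoid cells are the contractile layer around the tubule, and macrophages and blood vessel endothelium complete the stem cell niche. Few markers are exclusive to 1 cell type: smooth muscle genes are also active in cultured fibroblasts, and several genes of secreted or membrane proteins are active in many tissues.

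Gene counts totalled 17784332 to 54645903 per library, so that 1 CPM (counts divided by the library total in megareads, with totals scaled by the trimmed mean of M-values, TMM) was worth about 17.8 to 54.6 counts. All 18 germ cell markers examined reached 1 CPM in every library, with Ddx4, a germ cell RNA helicase gene, at 649 ± 21.1 CPM under EPZ5676 and 663 ± 21.6 CPM under ethanol (SD, n = 3). Not all were as even: Gfra1 was at 52.1 ± 7.65 and 69.4 ± 3.30 CPM, and Etv5 at 100 ± 5.44 and 88.1 ± 4.31 CPM. The groups of these 2 genes did not overlap, 11.1% of the 18, against 14.9% of all genes, and 0 of the 18 passed the test given below. Over the 6 libraries, the summed germ cell markers ran from 5432 to 6129 CPM, the summed fibroblast markers (26 genes) from 1576 to 2793 CPM, the summed 35 somatic markers from 214 to 307 CPM, and 68 further markers of the same 5 classes from 1088 to 1288 CPM. These sums hold different numbers of genes of different lengths, and each is given to follow 1 list across libraries, not to rank the lists. The replicate 2 libraries of both groups stood apart in several of these markers, which is given below beside each result it touches.

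Of the 35 markers, 19 were at 1 CPM or more in all 6 libraries, 4 (Inha, Lyz2, Cd14 and Ptprc) in some libraries only, and 12 in none. A share of 54.3% in all 6 libraries compares with 52.4% of all symbols in the table. By class, 6 of 12 Sertoli, 1 of 7 Leydig, 5 of 5 peritubular, 1 of 5 macrophage and 6 of 6 endothelial markers reached the threshold in every library. In bulk RNA, fewer cells of a type and less RNA per cell cannot be told apart, and a low level in all cells cannot be told apart from a high level in a few.

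**Figure D1:**
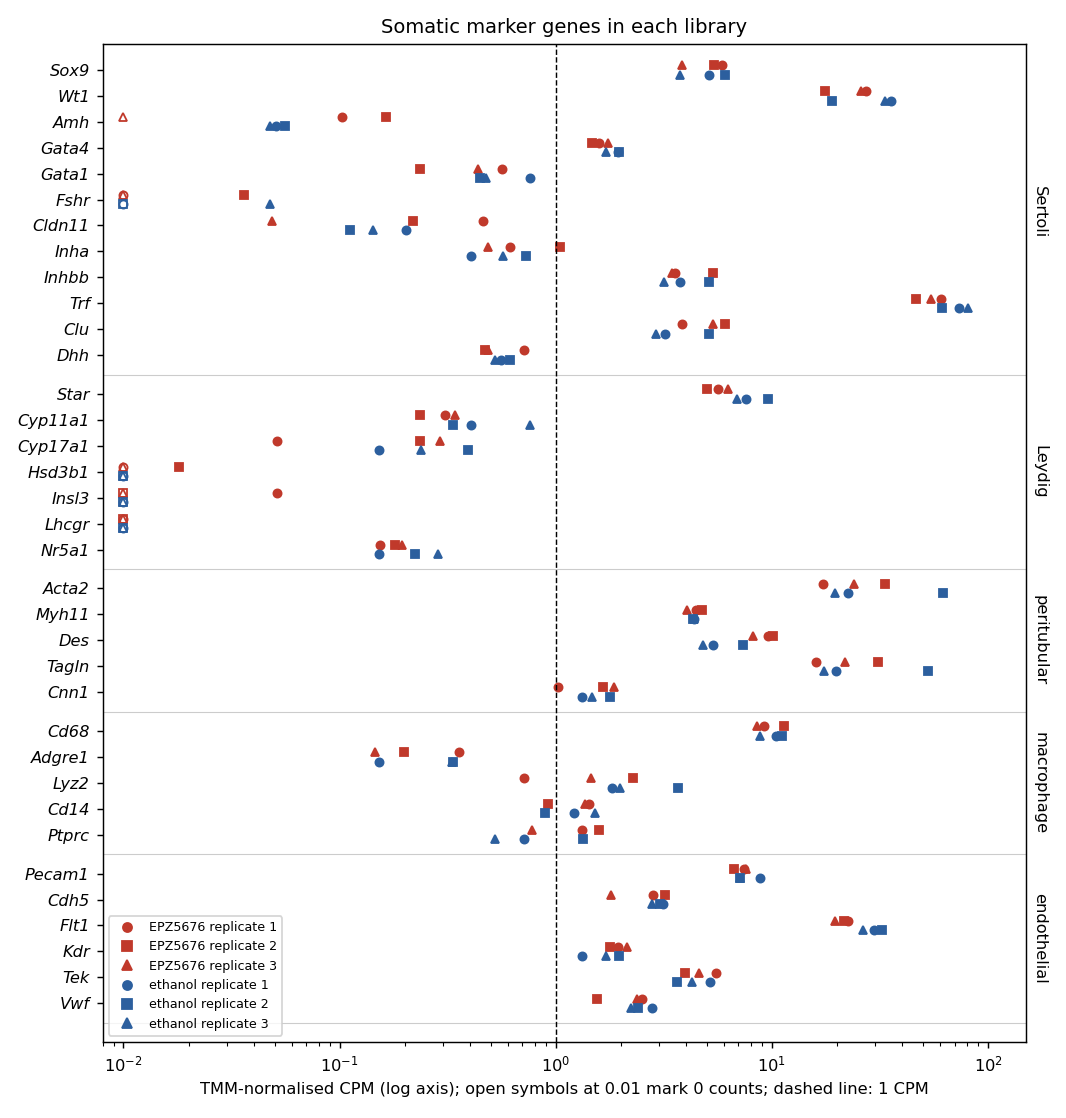
TMM-normalised CPM of the 35 somatic markers (vertical axis, grouped by cell class) on a log horizontal axis, 1 symbol per library, with open symbols at 0.01 for libraries with 0 counts. All 5 peritubular and all 6 endothelial markers lie to the right of the 1 CPM line, whereas 6 of the 7 Leydig markers lie to the left of it in every library.

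Of the 12 Sertoli markers measured, 5 stayed under 1 CPM in every library. Amh, which encodes the hormone that removes the Müllerian duct, had 14 counts over the 6 libraries, and Fshr, the receptor for follicle-stimulating hormone, had 3. Cldn11, a tight junction gene of the blood-testis barrier, lay between 0.0487 and 0.46 CPM. Gata1, a zinc finger transcription factor gene, lay between 0.236 and 0.762 CPM. Dhh, the hedgehog ligand that Sertoli cells send to Leydig cells, lay between 0.471 and 0.716 CPM. Gm49442 overlaps 25.2% of the exon bases of Dhh on the opposite strand and has no row in the count table. Inha, the inhibin alpha subunit gene, passed 1 CPM in 1 library, EPZ5676 replicate 2, at 1.05 CPM. The 5 markers under 1 CPM (Amh, Fshr, Cldn11, Gata1 and Dhh) summed to 1.31 ± 0.463 CPM under EPZ5676 and 1.35 ± 0.198 CPM under ethanol (SD, n = 3).

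The other 6 Sertoli markers were present in every library. Wt1, a zinc finger transcription factor gene needed for Sertoli identity, was at 27.2, 17.5 and 25.8 CPM in EPZ5676 replicates 1, 2 and 3 and at 35.6, 19.0 and 33.2 CPM in ethanol replicates 1, 2 and 3. The groups overlapped, and replicate 2 was the lowest library in both. Each EPZ5676 library was below the ethanol library of the same number, with log2 ratios of -0.39, -0.11 and -0.36. Its log2 fold change (EPZ5676 over ethanol) was -0.32 ± 0.25 (SE), with an adjusted p of 0.802. With a replicate block, a term that removes what same-numbered libraries share, it was -0.29 ± 0.09, with an unadjusted p of 0.0121 and an adjusted p of 0.163. Every adjusted p given here is from the quasi-likelihood test of edgeR, by the Benjamini-Hochberg method over all 14855 genes tested. Sox9, the transcription factor gene that directs Sertoli fate, was at 5.88, 5.42 and 3.85 CPM under EPZ5676 and at 5.13, 6.04 and 3.75 CPM under ethanol, 2 ranges that nearly coincide. Gata4, a transcription factor gene of the somatic gonad, was at 1.58, 1.47 and 1.75 CPM under EPZ5676 and at 1.93, 1.96 and 1.71 CPM under ethanol, again with overlap.

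Trf encodes transferrin, the iron carrier that Sertoli cells and liver secrete. It was at 60.3, 46.6 and 54.5 CPM in EPZ5676 replicates 1, 2 and 3 and at 73.2, 61.1 and 81.2 CPM in the ethanol replicates. Every EPZ5676 library was below every ethanol library, although EPZ5676 replicate 1 and ethanol replicate 2 differed by little. The log2 fold change was -0.42 ± 0.13 (SE) with an unadjusted p of 0.0129 and an adjusted p of 0.596, so that the difference did not pass the test. With the block, the adjusted p of Trf was 0.0514. In GENCODE M21, 76.7% of the exon bases of Trf are shared with the transcript Gm20425 on the same strand, which has no row in the count table. Trf carried 56.4% of the summed Sertoli CPM under EPZ5676 and 61.1% with ethanol. The Sertoli sum was 95.2 ± 10.2 and 118 ± 15.1 CPM (SD, n = 3), and without Trf it was 41.4 ± 3.28 and 45.7 ± 6.27 CPM.

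Clu, which encodes the secreted chaperone clusterin, was at 3.83, 6.07 and 5.36 CPM in EPZ5676 replicates 1, 2 and 3 and at 3.20, 5.09 and 2.89 CPM under ethanol. Its groups overlapped, and its log2 fold change of 0.46 ± 0.27 (SE) had an adjusted p of 0.741. Inhbb, the inhibin and activin beta B subunit gene, was at 4.12 ± 1.04 CPM under EPZ5676 and 4.01 ± 0.981 CPM under ethanol (SD, n = 3), with the replicate 2 library highest in each group. Among 18 further Sertoli markers, 7 reached 1 CPM in all libraries and 10 in none, and 0 of the 8 tested passed over all genes. Those 18 summed to between 267 and 326 CPM per library, most of it from Ctsl, the cathepsin L gene, at 249 ± 28.0 CPM under EPZ5676 and 240 ± 11.6 CPM under ethanol.

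Of the 7 Leydig markers, 6 were under 1 CPM in every library. Lhcgr, the receptor for luteinizing hormone, had 0 of 153574178 counts over the 6 libraries, which allows a level of up to 0.0195 CPM (3 counts over the 6 libraries, counting error only). Hsd3b1, a steroid dehydrogenase gene of androgen synthesis, and Insl3, the hormone of testis descent, had 1 count each over all libraries. Insl3 shares 64.8% of its exon bases with Jak3 on the same strand in the GENCODE M21 annotation, and reads there can be lost or split in counting, so that its near absence is uncertain. Cyp11a1 and Cyp17a1, the cytochrome P450 genes of the first steps of steroid synthesis, lay between 0.236 and 0.759 CPM and between 0.0511 and 0.392 CPM. Nr5a1, the nuclear receptor gene that drives steroidogenic genes, had 30 counts in all, and no library was above 0.285 CPM.

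Star was the exception. It encodes the carrier that delivers cholesterol into mitochondria for steroid synthesis. Its level was 5.62, 5.02 and 6.23 CPM in EPZ5676 replicates 1, 2 and 3 and 7.57, 9.63 and 6.93 CPM under ethanol. The groups did not overlap, and each EPZ5676 library was below each ethanol library. The log2 fold change was -0.52 ± 0.18 (SE) with an unadjusted p of 0.0193, and the adjusted p of 0.616 missed the threshold. With the replicate block the adjusted p of Star was 0.169. Star made up 89.1% of the summed Leydig CPM under EPZ5676 and 88.9% with ethanol, so that the Leydig sum of 6.31 ± 0.693 and 9.02 ± 1.35 CPM (SD, n = 3) describes this gene. The other 6 markers together gave 0.687 ± 0.134 CPM under EPZ5676 and 0.981 ± 0.286 CPM under ethanol. Among 12 further genes of steroid-making cells, 7 reached 1 CPM in all libraries and 5 in none, and 0 of the 7 tested passed over all genes. Their sum was between 372 and 461 CPM per library. Ctsl, above, and Erg, below, were singled out after their values were seen, as the most counted gene of their list.

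All 5 peritubular markers reached 1 CPM in every library, and Acta2 and Tagln differed widely among libraries of 1 treatment. Acta2, the smooth muscle actin gene, was at 17.2, 33.4 and 24.0 CPM in EPZ5676 replicates 1, 2 and 3 and at 22.6, 61.8 and 19.6 CPM in the ethanol replicates. Tagln, which encodes the actin-binding protein transgelin, was at 16.0, 31.0 and 21.9 CPM under EPZ5676 and at 19.8, 52.8 and 17.5 CPM under ethanol. The replicate 2 library was the highest of its group for both genes. Against the mean of replicates 1 and 3, it was 1.62 times higher with EPZ5676 and 2.93 times higher with ethanol for Acta2, and 1.63 and 2.83 times higher for Tagln.

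The log2 fold changes of Acta2 and Tagln were -0.47 ± 0.43 and -0.37 ± 0.42 (SE), with adjusted p of 0.839 and 0.873. Leaving out ethanol replicate 2 turned both directions, to 0.25 and 0.31. On the opposite strand, Gm48529 overlaps 55% and Pcsk7 5.89% of the exon bases of Tagln, and the use of strand in counting is not given in the sources used here. Pcsk7 has a row in the count table and Gm48529 has none. Many but not all fibroblast markers moved with the same libraries. Of the 25 tested, 16 (64%) were highest in replicate 2 of both groups, against 26.1% of all genes. Others were not: with EPZ5676, replicate 2 was at 0.693 (Dcn), 0.724 (Lum) and 0.656 (Col6a3) times the mean of replicates 1 and 3. The summed fibroblast markers were at 2097 and 2793 CPM in EPZ5676 and ethanol replicate 2, against 1576 to 1730 CPM in the other 4 libraries. Tcf21, a mesenchymal transcription factor gene of that list, was at 0 in all libraries. The part of fibroblasts in the Acta2 and Tagln levels was not tested.

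The promoters of the smooth muscle genes are shown because many genes of this program are controlled by serum response factor, which binds the CArG box (CC, 6 bases that are A or T, then GG). The sequences are from RefSeq on GRCm38.p6, 250 bases before the annotated start, 5′ to 3′ on the gene's strand, with capitals for a CArG box that has at most 1 base other than A or T in its core. Acta2 lies at chr19:34255374-34255623 (minus strand), Des at chr1:75360042-75360291 (plus strand) and Cnn1 at chr9:22099003-22099252 (plus strand), and no entry was used for Myh11 or Tagln.
Acta2: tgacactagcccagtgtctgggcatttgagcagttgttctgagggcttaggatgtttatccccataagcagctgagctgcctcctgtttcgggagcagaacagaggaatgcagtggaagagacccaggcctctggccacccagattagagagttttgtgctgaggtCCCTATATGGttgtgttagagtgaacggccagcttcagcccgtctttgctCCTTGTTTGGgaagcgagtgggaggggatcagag
Des: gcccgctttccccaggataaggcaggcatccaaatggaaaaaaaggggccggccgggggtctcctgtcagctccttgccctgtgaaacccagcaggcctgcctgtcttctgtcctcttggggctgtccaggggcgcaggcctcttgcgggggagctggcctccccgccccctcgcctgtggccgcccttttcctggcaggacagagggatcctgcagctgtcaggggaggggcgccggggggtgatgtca
Cnn1: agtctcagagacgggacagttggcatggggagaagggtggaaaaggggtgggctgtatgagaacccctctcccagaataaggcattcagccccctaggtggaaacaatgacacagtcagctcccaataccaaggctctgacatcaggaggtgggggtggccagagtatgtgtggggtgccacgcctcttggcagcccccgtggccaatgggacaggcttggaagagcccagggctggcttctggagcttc
The Acta2 window held 2 such sites, starting 84 and 34 bases before the annotated start, and the Des and Cnn1 windows held 0. The motif reads alike on both strands. Of 32851 promoter windows of the same length, 8.59% held at least 1 such site and 0.67% held 2 or more. With no mismatch allowed, the 3 windows held 0, and 1.47% of all windows held at least 1. The counts were made on mm9 and these coordinates are on GRCm38.p6, so that the windows serve for sequence only.

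Des, which encodes the muscle intermediate filament protein desmin, was the 1 marker whose EPZ5676 libraries were all above the ethanol libraries. It was at 9.61, 10.1 and 8.13 CPM in EPZ5676 replicates 1, 2 and 3 and at 5.34, 7.33 and 4.79 CPM under ethanol. The lowest EPZ5676 library, replicate 3, was above the highest ethanol library, replicate 2. The mean was 9.29 ± 1.03 against 5.82 ± 1.34 CPM (SD, n = 3), and the log2 fold change of 0.68 ± 0.19 (SE) had an unadjusted p of 0.00743 and an adjusted p of 0.596. With the replicate block the adjusted p was 0.0608. In the fit of all 6 libraries, the log2 fold change of Des had the opposite sign to those of Acta2 and Tagln. In the fit without ethanol replicate 2 it had the same sign as theirs. Gm15179, on the opposite strand, overlaps 7.27% of the exon bases of Des.

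Myh11, the smooth muscle myosin heavy chain gene, was at 4.42 ± 0.364 CPM under EPZ5676 and 4.35 ± 0.0337 CPM under ethanol (SD, n = 3). It did not show the high replicate 2 level of Acta2 and Tagln, with a ratio of replicate 2 to the others of 1.12 with EPZ5676 and 0.987 with ethanol. Cnn1, the calponin gene, was near the threshold, at 1.02, 1.65 and 1.85 CPM under EPZ5676 and 1.32, 1.79 and 1.47 CPM under ethanol. The summed class was 63.0 ± 16.5 CPM under EPZ5676 and 76.4 ± 44.8 CPM under ethanol, with ethanol replicate 2 at 128 CPM against 53.4 and 47.8 CPM in replicates 1 and 3. Of 12 further smooth muscle markers, 7 reached 1 CPM in all libraries and 2 in none. Of those, 9 were tested and 0 passed over all genes. A negative log2 fold change was found for 8 of the 9, against 51.7% of all genes. By pair, however, EPZ5676 was the higher library for 5 of the 9 in pair 1, 2 in pair 2 and 6 in pair 3. Their sum was 252 CPM in ethanol replicate 2 and 143 to 192 CPM in the other libraries.

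**Figure D2:**
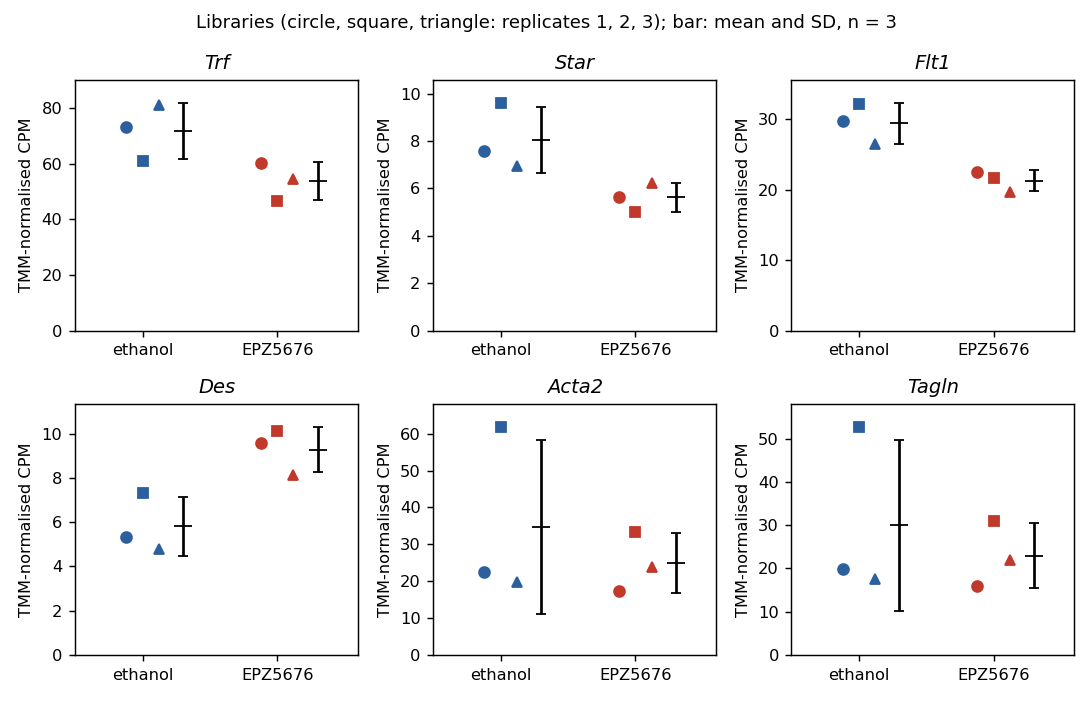
TMM-normalised CPM (vertical axes, from 0) of 6 markers in the ethanol and EPZ5676 libraries, with circles, squares and triangles for replicates 1, 2 and 3 and bars for the mean and SD of 3 libraries. Trf, Star and Flt1 were lower and Des higher in every EPZ5676 library than in every ethanol library, whereas Acta2 and Tagln were set apart by replicate 2, at 61.8 and 52.8 CPM in ethanol.

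Of the macrophage markers, Cd68, a lysosomal membrane glycoprotein gene that many cell types express at low level, reached 1 CPM in all libraries. It was at 9.15, 11.4 and 8.52 CPM in EPZ5676 replicates 1, 2 and 3 and at 10.5, 11.1 and 8.78 CPM under ethanol. The groups overlapped almost fully, and the log2 fold change was -0.05 ± 0.16 (SE). Adgre1, the F4/80 antigen gene that defines tissue macrophages, had 37 counts in all and was at no more than 0.358 CPM in any library.

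Lyz2, the lysozyme gene of myeloid cells, was at 0.716, 2.28 and 1.46 CPM in EPZ5676 replicates 1, 2 and 3 and at 1.83, 3.69 and 1.99 CPM under ethanol. Each EPZ5676 library was below the ethanol library of the same number, but the groups overlapped. The log2 fold change of -0.68 ± 0.43 (SE) had an adjusted p of 0.761, and 0.146 with the replicate block. Its paralog Lyz1 had at most 3 counts in a library, so that few reads were assigned to the near-identical copy.

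Ptprc, the CD45 antigen gene of all blood cells but red cells, leaned the other way. It was at 1.33, 1.58 and 0.779 CPM under EPZ5676 and 0.711, 1.34 and 0.522 CPM under ethanol, a log2 difference of 0.57 ± 0.41 (SE), for which the adjusted p was 0.791. Cd14, the lipopolysaccharide co-receptor gene, was at 1.24 ± 0.275 CPM under EPZ5676 and 1.21 ± 0.311 CPM under ethanol (SD, n = 3), and was under 1 CPM in both replicate 2 libraries. Of 13 further macrophage markers, 0 reached 1 CPM in all libraries and 9 stayed below it in every one, and their sum was between 4.70 and 8.72 CPM per library. Without Cd68, the class summed to 4.19 ± 0.691 CPM under EPZ5676 and 4.85 ± 1.25 CPM under ethanol.

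All 6 endothelial markers were above 1 CPM in all libraries. Flt1, which encodes vascular endothelial growth factor receptor 1, was at 22.5, 21.7 and 19.7 CPM in EPZ5676 replicates 1, 2 and 3 and at 29.7, 32.2 and 26.4 CPM under ethanol. The groups did not overlap. The replicate 2 libraries were not apart, at 1.03 and 1.15 times the mean of replicates 1 and 3 of their group. The means were 21.3 ± 1.47 and 29.5 ± 2.91 CPM (SD, n = 3), and the log2 fold change of -0.47 ± 0.12 (SE) had the smallest unadjusted p of the somatic markers, 0.00347, with an adjusted p of 0.558. With the replicate block the adjusted p was 0.0519.

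The other 5 endothelial markers had groups that overlapped. Pecam1, the CD31 adhesion molecule gene, was at 7.41, 6.69 and 7.55 CPM under EPZ5676 and 8.84, 7.11 and 7.12 CPM under ethanol. Kdr, the main receptor for vascular endothelial growth factor, was at 1.95 ± 0.183 CPM under EPZ5676 and 1.66 ± 0.321 CPM under ethanol (SD, n = 3). Its log2 fold change of 0.23 ± 0.24 (SE) had the opposite sign to that of Flt1. Tek, the angiopoietin receptor gene, was at 4.68 ± 0.789 and 4.36 ± 0.777 CPM, Cdh5, the cadherin gene of endothelial junctions, at 2.60 ± 0.718 and 2.99 ± 0.178 CPM, and Vwf, the von Willebrand factor gene, at 2.15 ± 0.515 and 2.48 ± 0.289 CPM, with EPZ5676 and ethanol in that order. Flt1 gave 53.4% of the endothelial sum with EPZ5676 and 60.5% with ethanol. The sum was 39.9 ± 2.48 and 48.6 ± 3.56 CPM, and 18.6 ± 1.52 and 19.2 ± 1.83 CPM without Flt1. Of 13 further endothelial markers, 4 reached 1 CPM in all libraries and 8 in none, and 0 of the 8 tested passed over all genes. Those 13 summed to between 260 and 292 CPM per library, most of it from the transcription factor gene Erg.

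Over all classes, 24 of the 35 markers had enough counts to test and 0 passed, as did 0 of all 14855 genes (0% called). At an unadjusted p under 0.05 there were 4, Trf, Star, Des and Flt1, against 7.41% of all genes. The same 4 had groups that did not overlap, 16.7% of the 24, a share near the 14.9% of all genes. Higher in EPZ5676 was 1 of the 24 (Des), against 7.21% of all genes, and lower were 3, against 7.65%. The median log2 fold change of the tested markers was -0.05 and that of all genes was -0.01, with 15 of 24 negative against 51.7% of all genes. Markers entered the test only with enough counts in at least 3 libraries, so these shares do not speak for the 11 others.

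With the replicate block, 0 of the 24 passed, against 0.653% of all genes, and 7 had an unadjusted p under 0.05, against 18.5% of all genes. Limited to 2 of the 3 pairs, with 1 residual degree of freedom, the blocked fit called Trf, Des and Flt1 both without pair 2 and without pair 3. It also called Wt1 lower without pair 2, and Star, Acta2 and Tagln lower without pair 3. Those fits called 5.36% and 5.1% of all genes, and without pair 1 the blocked fit called 0 markers and 0% of all genes.

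**Figure D3:**
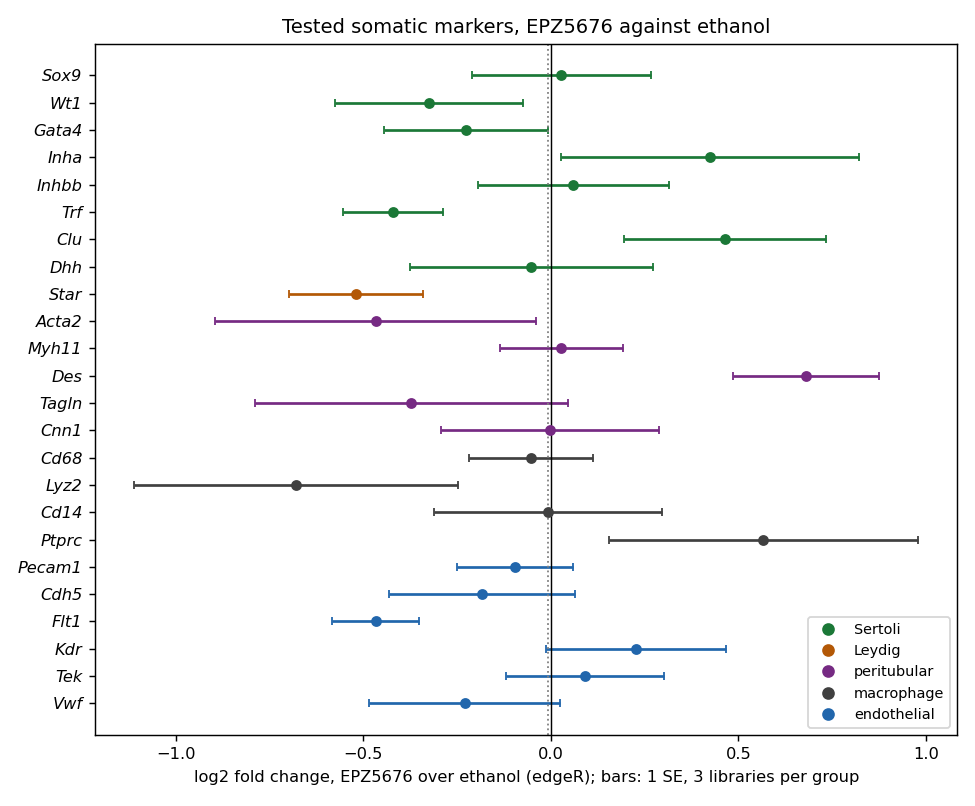
Log2 fold change of EPZ5676 over ethanol (horizontal axis) for the 24 tested markers, coloured by cell class, with bars of 1 SE from edgeR, and the median of all genes (-0.01) as a dotted line. The values run from -0.68 for Lyz2 to 0.68 for Des, and none passed after adjustment over all genes.

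Levels can be set beside each other between genes only per length, here as mean CPM per kilobase of exon over the 6 libraries. Trf had 22.8 CPM per kilobase (lowest to highest library 16.9 to 29.5), Tagln 16.6 (10.1 to 33.1) and Acta2 14.6 (8.46 to 30.4), 3 ranges that overlapped. Cd68, at 7.87 (6.78 to 9.04), and Wt1, at 7.84 (5.21 to 10.6), followed, and their ranges overlapped as well. Des, Clu and Flt1 were next, at 2.49, 2.44 and 2.32 CPM per kilobase. On the same scale the germ cell genes Dazl and Ddx4 had 567 (548 to 596) and 218 (208 to 225), above every somatic marker in every library. Zbtb16, a transcription factor gene of undifferentiated spermatogonia, had 93.2, Sall4 32.1 and the GDNF co-receptor gene Gfra1 13.1, and the range of Gfra1 (9.49 to 15.7) overlapped those of Tagln and Acta2. Other germ cell markers were lower still: Nanos2 had 6.84, Id4 5.18 and Utf1 4.01. Those means were below the means of Cd68 and Wt1 and above those of Des, Clu and Flt1. Of the fibroblast genes, the collagen genes Col1a1 and Col3a1 had 41.8 and 22.7 and Dcn 12.8 CPM per kilobase. Others of that list were higher, as Fn1 at 80.5, or lower, as Fap at 0.333.

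Replicate 2 was the highest library of its group in both groups for 9 of the 24 tested markers, against 26.1% of all genes, and the lowest in both for 5, against 26.6%. The 9 were spread over the Sertoli (3), peritubular (3) and macrophage (3) classes, with 0 of 6 endothelial markers. Lyz2 was 2.10 and 1.93 times higher in replicate 2 than in the mean of replicates 1 and 3, with EPZ5676 and ethanol, and Ptprc was 2.18 times higher under ethanol. Wt1 was at 0.662 and 0.552 times the others, Cd14 at 0.662 and 0.654, Tek at 0.783 and 0.770, and Trf at 0.811 and 0.791. The somatic markers therefore did not move together in these libraries. Over lists, the median ratio was 1.12 with EPZ5676 and 1.22 with ethanol for the somatic markers, 1.30 and 1.53 for the fibroblast markers, and 0.998 and 0.857 for the germ cell markers.

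**Figure D4:**
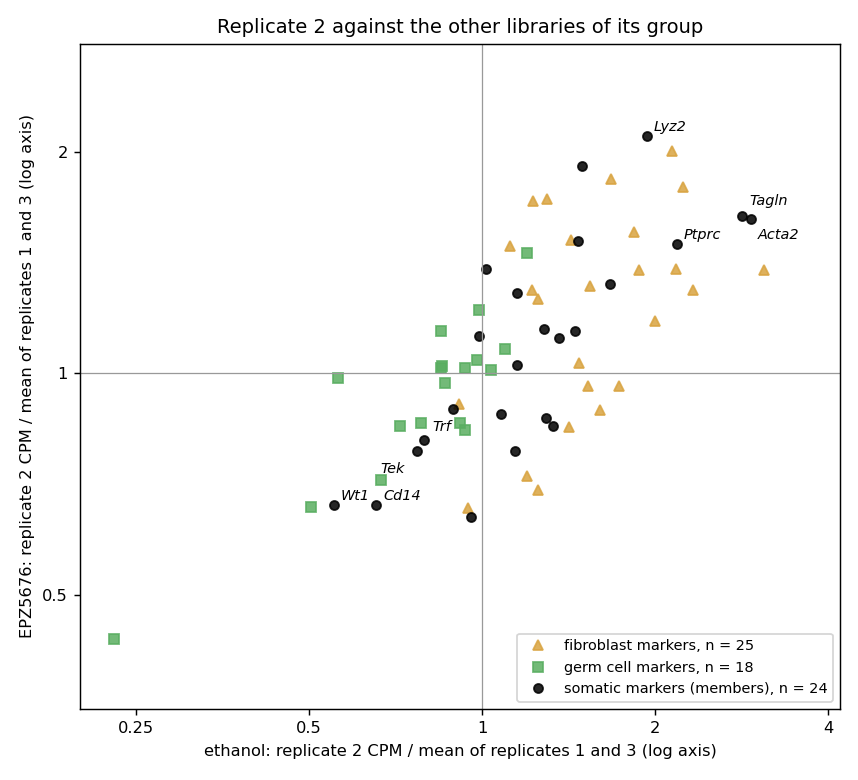
Ratio of replicate 2 to the mean of replicates 1 and 3 in ethanol (horizontal, log axis) and EPZ5676 (vertical, log axis), 1 point per tested gene. Acta2, Tagln, Lyz2 and Ptprc lie in the upper right among the fibroblast markers, and Wt1, Cd14, Trf and Tek lie in the lower left.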

How the data were processed

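RNA was measured in 6 libraries made with a stranded poly(A) kit, per the labels' protocols. The deposited table holds raw whole-number counts per gene symbol. The submitters' processing notes name Bowtie, STAR, featureCounts, edgeR and mm9. Their versions, roles and settings, the annotation and the use of strand were not given in the sources available for this work. The deposited repeat-family counts were not used.

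The counts were analysed in R 4.3.3 with edgeR 4.0.16: filterByExpr (14855 genes kept), TMM scaling, and the 2-sided quasi-likelihood test of EPZ5676 against ethanol with Benjamini-Hochberg adjustment, called at 0.05. DESeq2 1.42.0, limma 3.58.1 (voom), other scalings and filters, a replicate block and left-out libraries were tried as alternatives. In simulated counts for this comparison (14855 genes), the test recovered 31 of 100 genes changed 1.5-fold and 98 of 100 changed 2-fold. The changed genes were drawn from those with higher mean CPM. Every simulated gene had the same dispersion, and nothing was shared by libraries of the same number. These shares therefore do not speak for markers at low CPM, or for markers that vary widely between libraries, such as Acta2 and Tagln. The members and lists were chosen with earlier results of these data known. Every marker is accounted for, and those at 1 CPM in all libraries are given in full.

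Deviations from group means correlated at 0.41, 0.61 and 0.34 between libraries numbered 1, 2 and 3, all above the bound of 0.1. Unmatched numbers also passed that bound: number 1 under EPZ5676 against number 3 under ethanol gave 0.28, and the reverse gave 0.15. Unmatched pairs that held a number 2 library were all negative, from -0.49 to -0.33. Deviations from a group mean cancel out within the group, so a positive matched value forces the unmatched values to be negative on balance. The negative values are therefore not separate evidence of matching. The matched value was highest for number 2, at 0.61. For numbers 1 and 3, at 0.41 and 0.34, it was nearer to the unmatched values of 0.28 and 0.15. The replicate block is given where it matters. The series text calls the libraries biological triplicates but not what the numbers stand for, and p-values measure the spread between these libraries. No library was a copy of another (chi-square per degree of freedom of 3.64 or more). Exon lengths and overlaps come from GENCODE M21 and promoters from RefSeq, with an entry used for 19 of 35 markers, too few for a check of promoter composition, which is void. Counting limits cover counting error only.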

Additional observations from a re-analysis of the deposited data

How the results depend on the processing

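Markers called stayed at 0 except with 2 of the 3 pairs and the replicate block, where leaving out pair 2 gave 1 higher and 3 lower, and leaving out pair 3 gave 1 higher and 5 lower. Over all genes, the block called 48 higher and 49 lower, DESeq2 22 and 28, and the fit with both replicate 2 libraries left out 6 and 4, against 0. With the replicate block, leaving out pair 2 called 363 higher and 432 lower, pair 3 486 and 275, and pair 1 0 and 0, and with any 1 library left out and no block 0 were called. The number of markers at 1 CPM in all libraries was within 1.5 times 19 under every alternative run, and the median log2 fold change moved by less than the spread between libraries. The threshold mattered for single markers. At 2 CPM, the endothelial markers Kdr, Vwf and Cdh5 missed it in their lowest library, at 1.32, 1.56 and 1.80 CPM. Gata4 and Cnn1 were under 2 CPM in every library.

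No marker was called in a fit of all 6 libraries, and the markers below changed direction. Cd14 was at 0.0344 with the block, 0.00374 with DESeq2 and 0.00204 with no filter, and Cnn1 was at 0.00716 with no filter. With both replicate 2 libraries left out, Dhh was at 0.148, Myh11 at -0.0418, Tagln at 0.0268, Cnn1 at 0.0459 and Cd14 at 0.0256. The cause was not tested. With each EPZ5676 library left out in turn, log2 fold changes that turned ran from -0.086 to 0.182 for Sox9, -0.0398 to 0.613 for Inha, -0.185 to 0.168 for Inhbb, -0.239 to 0.0877 for Dhh, -0.0353 to 0.0845 for Myh11, -0.15 to 0.191 for Cnn1, -0.193 to 0.0275 for Cd68, -0.125 to 0.197 for Cd14, -0.376 to 0.0106 for Cdh5 and -0.0413 to 0.208 for Tek. With each ethanol library left out in turn they ran from -0.142 to 0.188 for Sox9, -0.085 to 0.268 for Inhbb, -0.105 to 0.000339 for Dhh, -0.752 to 0.245 for Acta2, -0.647 to 0.311 for Tagln, -0.0983 to 0.121 for Cnn1, -0.147 to 0.0159 for Cd68, -0.191 to 0.193 for Cd14, -0.153 to 0.018 for Pecam1 and -0.03 to 0.234 for Tek. With the replicate block and each pair left out in turn they ran from -0.0688 to 0.124 for Sox9, -0.259 to 0.143 for Dhh, -0.0429 to 0.0912 for Myh11, -0.566 to 0.0186 for Tagln, -0.212 to 0.0906 for Cnn1, -0.119 to 0.000141 for Cd68 and -0.0594 to 0.141 for Cd14. In the block fit without pair 2, Cnn1 was at 0.0323 and Cd14 at 0.0278. The highest value of Inha over the single left-out libraries was 0.636, and the lowest of Tagln -0.658. Trf, Star, Flt1 and Des kept their direction in all of these fits, as did Wt1, Gata4, Clu, Lyz2, Ptprc, Kdr and Vwf. For Trf, Star, Flt1 and Des the groups did not overlap, so that leaving out libraries could hardly turn them.

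Without its most counted marker, the sum with EPZ5676 and ethanol was 41.4 and 45.7 CPM for Sertoli, 0.687 and 0.981 for Leydig, 38.2 and 41.7 for peritubular, 4.19 and 4.85 for macrophage and 18.6 and 19.2 for endothelial markers. At 17.8 to 54.6 counts per CPM, markers under 1 CPM rest on few counts, and the 11 markers that missed the count filter were not tested between groups.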

Other observations

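Markers of 1 cell class differed widely in level in these libraries. Erg, an ETS transcription factor gene of endothelium that was singled out after its values were seen, was at 240 ± 17.3 CPM under EPZ5676 and 250 ± 18.9 CPM under ethanol (SD, n = 3), and Cldn5, a tight junction gene of endothelium, at 0.323 ± 0.128 and 0.176 ± 0.145 CPM. Per kilobase of exon, Erg had 70.6 CPM and Cldn5 0.176 CPM.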
